A study of Mus musculus with 6 samples.

Results

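Solute carriers are the membrane proteins that move sugars, amino acids, ions, metals, vitamins and other small molecules into and out of cells and organelles. Genes whose single symbol starts with Slc and a digit were taken from the table of array signals, leaving out 6 (Slc7a11, Slc24a5, Slc40a1, Slc11a1, Slc31a1 and Slc31a2). Of 93 such genes with a value, 64 were members, 23 had a mean signal below the threshold and 6 were the genes left out by name. The threshold was the 30th percentile of the mean signal of 7659 named genes over the 6 arrays, log2 4.15, and 5361 genes in all lay at or above it. The members nearest above it were Slc9b2 (mean log2 4.20), Slc39a8 (4.20) and Slc28a2 (4.24), and the nearest below were Slc9a2 (4.09), Slc26a7 (3.95) and Slc2a2 (3.91). Membership thus used the mean signal and not the difference between the groups.

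The RNA came from Melan-a cells, an established line of pigmented mouse melanocytes of C57BL/6 strain, labelled female. Cells received siDicer, an siRNA against Dicer, or siScr, the control siRNA, with 3 arrays in each group. All cells were grown with 200 nM of the phorbol ester TPA, and 50 pmol of siRNA was given with lipid and magnetic reagents. Sampling is put at 48 h by the titles, whereas the protocol describes new medium after 6 h and lysis after a further 24 h. Replicate 1 of each group was at passage 47, replicate 2 at passage 54 and replicate 3 at passage 56, and all RNA integrity numbers were 10.0. The groups therefore come from a single line, and Dicer1 itself was not analysed here, so the knockdown was not checked.

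Mature microRNAs are released from their hairpin precursors by Dicer, and they bind messenger RNAs and lower their level or translation. Zinc carriers work in opposed families: Slc39 proteins bring zinc into the cytosol, and Slc30 proteins move it out of the cytosol or into vesicles. Slc35 proteins feed nucleotide sugars into the Golgi apparatus and endoplasmic reticulum for glycosylation, Slc44 proteins carry choline and related substrates, and Slc9 proteins exchange sodium for protons. In melanocytes, proton, calcium and cystine carriers are known to take part in the making of melanosomes, the pigment organelles.

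The signals are log2 values per transcript cluster, put on a common scale by the authors. Medians per array ran from 4.63 to 4.68 over the 16383 clusters, and any 2 arrays had a correlation of at least 0.993. The clusters analysed here are numbered to chromosomes 1 to 4. Melanocyte markers were high (Tyrp1 at a mean of 12.81 in siDicer and 12.86 in siScr, Pax3 at 10.48 and 10.60). Of 13 listed melanocyte markers 3 had a value, and all 3 lay above the threshold. The leukocyte marker Ptprc was at 2.84 in both groups, below the threshold, as was the keratinocyte marker Ivl at 3.92 and 3.95. Other markers of non-melanocyte cells lay above it. In siDicer and siScr, the keratinocyte marker Flg was at 6.89 and 6.92 and the fibroblast marker Col3a1 at 6.29 and 6.34. The leukocyte marker Laptm5 was at 5.21 and 5.23. Of 10 keratinocyte, 9 fibroblast and 8 leukocyte markers, 1, 2 and 5 of the 4, 3 and 7 with a value lay above the threshold, and the summed linear signals of each list overlapped between the groups. In bulk RNA, fewer cells with a transcript and less of it per cell cannot be told apart.

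Without a term for passage, no member passed the test between siDicer and siScr (0 of 64, limma, Benjamini-Hochberg adjusted p threshold of 0.05), beside 1 of 5361 tested genes, or 0.0187%. At an unadjusted p under 0.05 there were 3 members (Slc39a10, Slc9a8 and Slc35a3), or 4.69%, against 8.52% of tested genes (4.61% higher, 3.92% lower). With passage as a block, the zinc importer Slc39a10 fell and the sodium-proton exchanger Slc9a8 rose in siDicer. That is 2 of 64 members, against 93 of 5361 tested genes or 1.73% (61 higher, 1.14%, and 32 lower, 0.597%). At an unadjusted p under 0.05 with the block there were 8 members, or 12.5%, against 13.8% of tested genes (7.67% higher, 6.14% lower). The members called, 3.13%, are a share near that of the whole table.

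As a set the members moved little. Of the 64, 30 were higher and 34 lower in siDicer, with a median difference of log2 -0.0029, beside -0.0093 over all tested genes. The median size of the difference was 0.042 for the members and 0.064 for all tested genes. Differences of at least 0.25 in size were found in 2 members, or 3.13%, against 5.41% of tested genes. The 2 groups did not overlap in 6 members (3 higher, 3 lower), or 9.38%, against 14.5% of tested genes (6.68% higher, 7.82% lower). The difference had the same sign at all 3 passages in 19 members (8 higher, 11 lower), or 29.7%, against 36.1% of tested genes (16.1% higher, 20.0% lower). On these measures the solute carriers were not more often different than the other genes of the table.

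**Figure D1:**
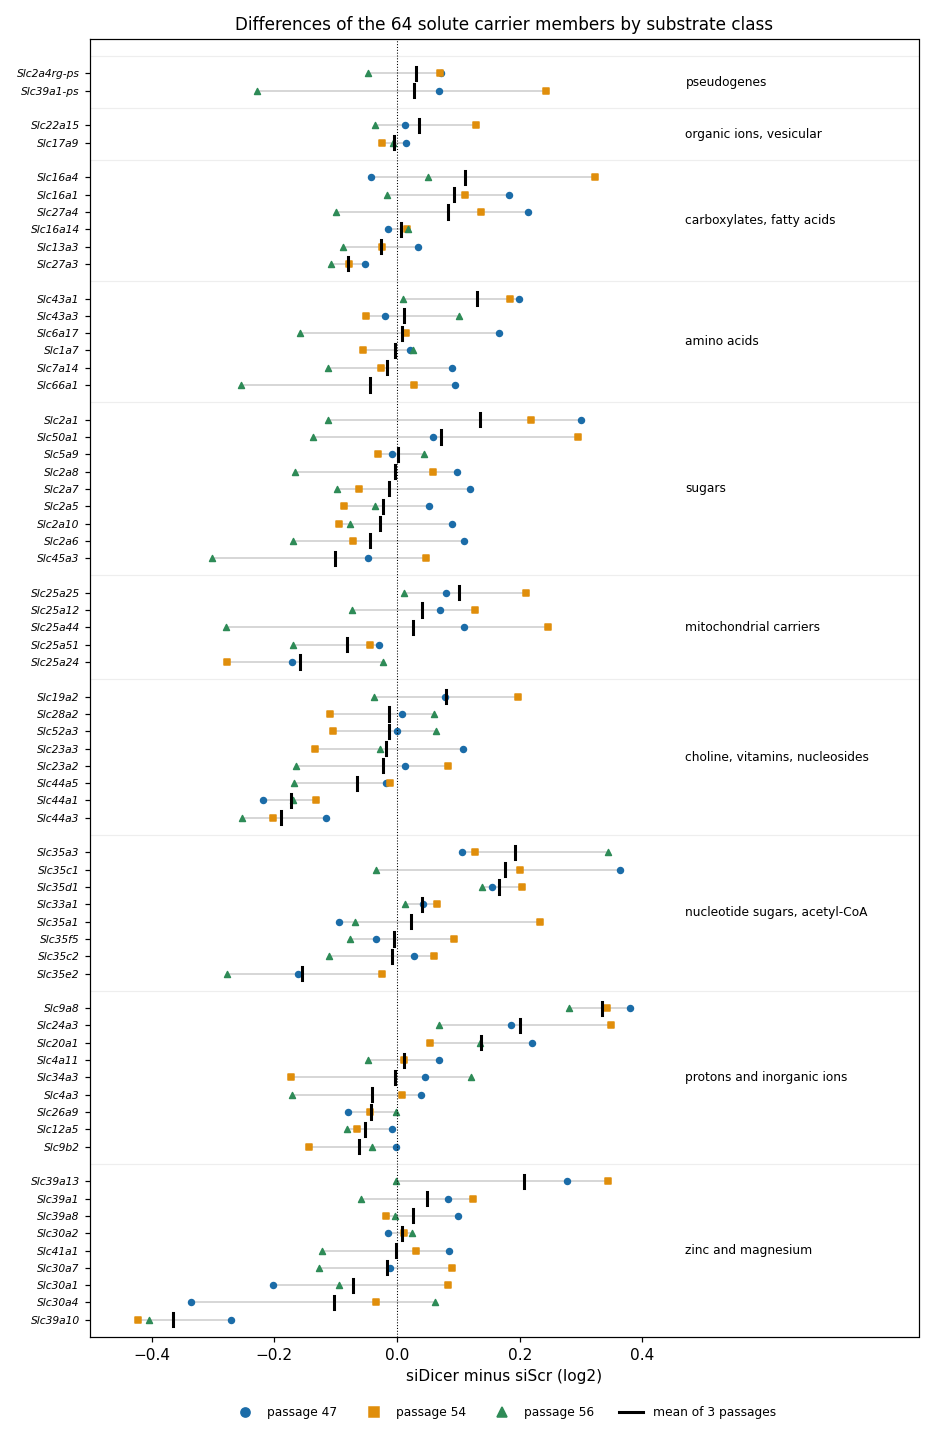
Differences between siDicer and siScr (log2, horizontal axis) of the 64 solute carrier members, grouped by substrate class. Coloured symbols are the single passages, grey lines their range and black bars the mean of the 3 passages. Slc39a10 at -0.37 and Slc9a8 at 0.33 lie farthest from 0, and most other members have passages on both sides of 0.

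For the 2 members called under the block, Slc39a10 and Slc9a8, the bases just before their listed starts are shown. They are from RefSeq on GRCm38.p6, 250 bases each, read 5′ to 3′ on the gene's strand and ending at the base before the start. Slc30a1, the zinc exporter of the plasma membrane, is set beside them because zinc-responsive control through the factor Mtf1 is well known for it. Capitals mark the core of the metal response element, TGCACNC or TGCGCNC, searched on both strands.
Slc39a10, first listed start (chr1:46853619-46853868, minus strand): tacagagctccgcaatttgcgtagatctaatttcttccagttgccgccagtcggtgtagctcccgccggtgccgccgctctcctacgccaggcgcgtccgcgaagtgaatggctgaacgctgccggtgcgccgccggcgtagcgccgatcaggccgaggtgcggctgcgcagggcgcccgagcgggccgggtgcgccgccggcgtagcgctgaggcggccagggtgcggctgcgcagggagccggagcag
Slc39a10, other listed start (chr1:46925777-46926026, minus strand): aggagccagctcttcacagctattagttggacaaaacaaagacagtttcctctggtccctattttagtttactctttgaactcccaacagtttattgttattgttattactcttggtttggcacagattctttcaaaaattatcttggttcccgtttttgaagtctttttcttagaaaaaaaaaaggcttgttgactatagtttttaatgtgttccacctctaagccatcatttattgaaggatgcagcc
Slc30a1 (chr1:191906531-191906780, plus strand): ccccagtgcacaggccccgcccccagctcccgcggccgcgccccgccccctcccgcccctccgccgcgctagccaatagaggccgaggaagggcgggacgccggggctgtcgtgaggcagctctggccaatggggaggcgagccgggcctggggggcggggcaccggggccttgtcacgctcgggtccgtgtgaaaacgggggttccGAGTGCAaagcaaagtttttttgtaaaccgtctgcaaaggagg
Slc9a8 (chr2:167421460-167421709, plus strand): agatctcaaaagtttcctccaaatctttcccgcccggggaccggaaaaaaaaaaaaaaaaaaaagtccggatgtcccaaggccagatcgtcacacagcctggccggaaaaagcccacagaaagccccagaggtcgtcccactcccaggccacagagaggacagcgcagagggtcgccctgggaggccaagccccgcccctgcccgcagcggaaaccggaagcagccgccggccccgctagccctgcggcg

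The 2 windows of Slc39a10 differ in base composition, at 71.6% and 35.6% G and C, and which start these cells use was not measured. The window of Slc30a1 has 71.2% and that of Slc9a8 62.0%. The element was found 1 time, in Slc30a1, as GAGTGCA on the strand shown, which reads as the element on the opposite strand, with its first base 43 bases before the start. These letters do not occur in the other 3 windows. Over all 32851 windows of this length 21.4% hold a match, and 19 of the 68 windows of the 54 members with a listed start do (27.9%). Counted by gene, with a match in any window, 18 of the 54 members hold one (33.3%). Of 8 zinc carriers with a window, 4 hold a match (Slc30a1, Slc30a2, Slc30a4 and Slc39a8). The share by gene was not counted over all genes. These 2 counts by gene therefore have no background and cannot be set against the 21.4% of windows. A match is a description of letters and not evidence of binding. Bases after the start were not searched, so a window without a match does not show that the gene lacks the element.

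Among zinc importers, Slc39a10 (ZIP10, transcript cluster TC0100002288.mm.1, chromosome 1) had the largest difference of all members. Its log2 signal was 7.62, 7.71 and 7.72 in siDicer replicates 1 to 3 and 7.89, 8.13 and 8.13 in siScr replicates 1 to 3. Every siDicer array lay below every siScr array, and the lowest siScr value, at passage 47, was paired with the lowest siDicer value. The means were 7.68 ± 0.057 and 8.05 ± 0.14 (SD, n = 3), a 1.29-fold difference. This is a log2 difference of -0.37 (95% interval -0.56 to -0.17, standard error 0.085, adjusted p from limma 0.238). With passage as a block the standard error was 0.064 (limma, adjusted p = 0.0431), and the passages gave -0.27, -0.42 and -0.40. Its block call was lost when any 1 passage was left out (limma, adjusted p from 0.0597 to 0.215), and also with dim genes kept in the test (0.0690).

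The other zinc importers did not follow it. Slc39a13 (ZIP13), an importer of the secretory pathway, was at 7.77, 7.95 and 7.55 in siDicer and at 7.49, 7.61 and 7.56 in siScr. It was higher in siDicer at passages 47 and 54 (0.28 and 0.34) and level at passage 56 (-0.0023), so the groups overlapped. Its difference of 0.21 had a 95% interval of -0.032 to 0.45 (limma, adjusted p = 0.663). Leaving out siDicer replicate 2 gave 0.11, and leaving out siDicer replicate 3 gave 0.31. Slc39a1 (ZIP1), of the plasma membrane, differed by 0.050 and Slc39a8 (ZIP8), which also carries manganese, by 0.026. Of the 4 tested importers 3 were higher and 1 lower.

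Among zinc exporters, Slc30a1 was at 6.92, 6.82 and 6.86 in siDicer and at 7.12, 6.74 and 6.96 in siScr. Its difference of -0.071 had a 95% interval of -0.30 to 0.16, and the passages gave -0.20, 0.082 and -0.094. Slc30a4, a zinc carrier of vesicles, differed by -0.10, of which passage 47 gave -0.34, passage 54 gave -0.035 and passage 56 gave 0.061. Slc30a7, which loads zinc into the Golgi apparatus, differed by -0.017 and Slc30a2 by 0.0074. The magnesium carrier Slc41a1 differed by -0.0017. Of the 4 tested exporters 1 was higher and 3 lower, with none passing (limma, 0 of 4, and 0 at an unadjusted p under 0.05 with or without the block). Among the metal carriers left out by name, the iron exporter Slc40a1 differed by 0.50, the copper carriers Slc31a1 and Slc31a2 by -0.11 and 0.11, and Slc11a1, which moves iron and manganese, by -0.018.

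Slc9a8 (NHE8, cluster TC0200002587.mm.1, chromosome 2), which exchanges sodium for protons at the Golgi apparatus and the cell surface, was higher in siDicer. Its log2 signal was 8.05, 7.86 and 7.94 in siDicer and 7.67, 7.52 and 7.66 in siScr, replicates 1 to 3. Every siDicer array lay above every siScr array, and passage 54 was the lowest in both groups. The means were 7.95 ± 0.097 and 7.62 ± 0.087 (SD, n = 3), a 1.26-fold difference. This is a log2 difference of 0.33 (95% interval 0.15 to 0.52, standard error 0.079, adjusted p from limma 0.239). With passage as a block the standard error was 0.061 (limma, adjusted p = 0.0485), and the passages gave 0.38, 0.34 and 0.28. The block call held without passage 56 (limma, adjusted p = 0.0416) and was lost without passage 47 (0.273), without passage 54 (0.220) and with dim genes kept in (0.0762).

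**Figure D2:**
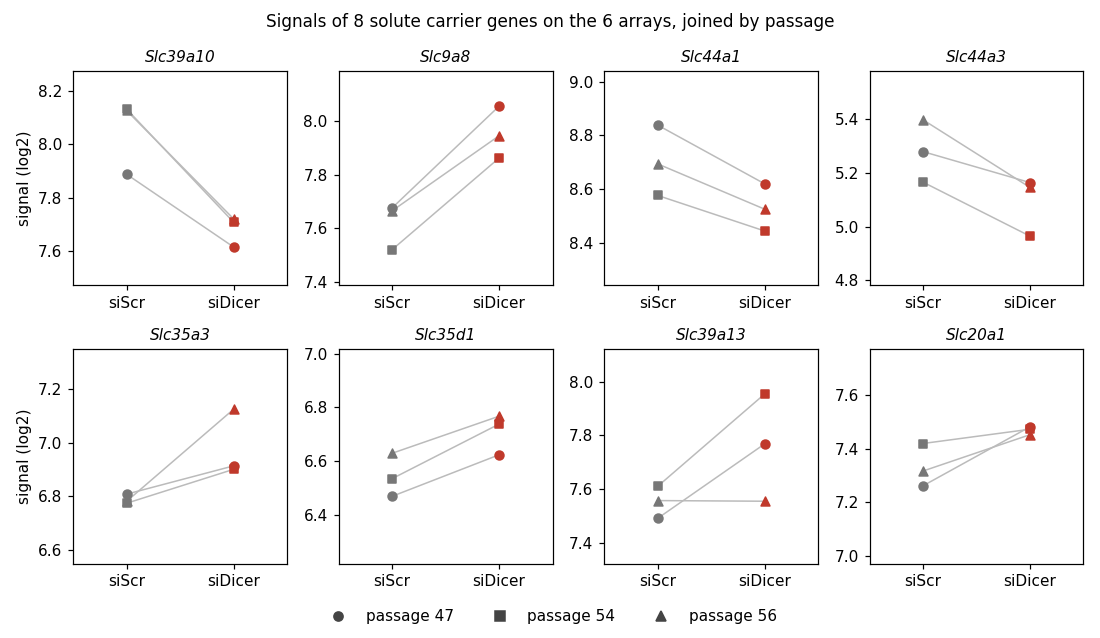
Log2 signal (vertical axis, a span of 0.8 in each panel, set per gene) of 8 solute carrier genes on the 6 arrays; grey lines join the siScr and siDicer arrays of a passage. Lines run down at all passages for Slc39a10, Slc44a1 and Slc44a3 and up for Slc9a8, Slc35a3, Slc35d1 and Slc20a1, while Slc39a13 is level at passage 56.

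Other carriers of inorganic ions differed less. Slc20a1 (PiT1), a sodium-dependent phosphate importer, was at 7.48, 7.47 and 7.45 in siDicer and at 7.26, 7.42 and 7.32 in siScr. These groups did not overlap, with the siDicer arrays close together, and the difference was 0.14 (95% interval -0.018 to 0.29, limma, adjusted p = 0.661). Slc24a3, which exchanges sodium for calcium and potassium, differed by 0.20, with 0.19, 0.35 and 0.069 by passage (adjusted p from limma 0.275 under the block). It was 0.0045 without siDicer replicate 2. Leaving out replicate 1 or 2 of siScr gave 0.12 or 0.32. Slc9b2, a sodium-proton antiporter, differed by -0.062, with groups that narrowly did not overlap. The chloride cotransporter Slc12a5 (-0.052), the chloride carrier Slc26a9 (-0.042), the anion exchanger Slc4a3 (-0.042), Slc4a11 (0.011) and the phosphate carrier Slc34a3 (-0.0028) lay closer to 0. Of the 9 tested ion carriers 4 were higher and 5 lower, with a median of -0.0028.

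The 3 choline and choline-like carriers were lower in siDicer at all 3 passages. Slc44a1, the choline carrier of the plasma membrane and mitochondria, was at 8.62, 8.44 and 8.52 in siDicer and at 8.84, 8.58 and 8.69 in siScr. The groups overlapped by the passage 54 control, and the passages gave -0.22, -0.13 and -0.17. Slc44a3 was at 5.16, 4.96 and 5.15 in siDicer and at 5.28, 5.17 and 5.40 in siScr, with each siDicer array below each siScr array. Slc44a5 was at 4.69, 4.66 and 4.75 in siDicer and at 4.70, 4.67 and 4.92 in siScr, so that nearly all of its difference came from passage 56.

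The differences were -0.17 for Slc44a1 (95% interval -0.38 to 0.029), -0.19 for Slc44a3 (-0.38 to 0.0014) and -0.066 for Slc44a5 (-0.24 to 0.11). None passed (limma, adjusted p = 0.663, 0.583 and 0.878, and 0.275, 0.204 and 0.700 with passage as a block). The same direction at all passages, downward, was found in 20.0% of tested genes. With 1 array left out Slc44a5 reached 0.011, without siScr replicate 3, while Slc44a1 stayed between -0.24 and -0.11 and Slc44a3 between -0.25 and -0.13.

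Vitamin and nucleoside carriers lay near 0. The thiamine importer Slc19a2 differed by 0.080 and the ascorbate importer Slc23a2 by -0.023. Slc23a3 (-0.018), the nucleoside importer Slc28a2 (-0.014) and the riboflavin importer Slc52a3 (-0.014) had passages of both signs. Of the 8 tested members of the class that joins choline, vitamin and nucleoside carriers, 1 was higher and 7 lower, with a median of -0.021 and 0 passing.

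Among nucleotide sugar carriers the larger differences were upward. Slc35a3, which brings UDP-N-acetylglucosamine into the Golgi apparatus, was at 6.91, 6.90 and 7.12 in siDicer and at 6.81, 6.77 and 6.78 in siScr. Its siScr arrays lay close together and all below the siDicer arrays, of which passage 56 stood highest. Slc35d1, a carrier of UDP-glucuronic acid and UDP-N-acetylgalactosamine, was at 6.62, 6.74 and 6.77 in siDicer and at 6.47, 6.53 and 6.63 in siScr. The groups overlapped at their edge, but each passage gave a higher siDicer value, by 0.15, 0.20 and 0.14.

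The difference was 0.19 for Slc35a3 (95% interval 0.014 to 0.37, limma, adjusted p = 0.554) and 0.17 for Slc35d1 (-0.00069 to 0.33, limma, adjusted p = 0.583). With passage as a block the limma adjusted p was 0.286 and 0.271. Without siDicer replicate 3 the difference of Slc35a3 was 0.12. Slc35c1, the GDP-fucose carrier, differed by 0.18, with 0.36 and 0.20 at passages 47 and 54 and -0.034 at passage 56. The CMP-sialic acid carrier Slc35a1 differed by 0.023 and Slc33a1, which carries acetyl-CoA into the endoplasmic reticulum, by 0.040. Slc35e2, whose substrate is less well known, differed by -0.15, with -0.16, -0.025 and -0.28 by passage. Slc35c2 and Slc35f5 differed by -0.0078 and -0.0056. Of the 8 tested members of this class 5 were higher and 3 lower, with a median of 0.032, and 0 passed in either fit.

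Glucose and other sugar carriers had passages of both signs. Slc2a1 (GLUT1), the basal glucose importer, was at 9.56, 9.40 and 9.33 in siDicer and at 9.26, 9.18 and 9.45 in siScr. It was higher at passages 47 and 54 (0.30 and 0.22) and lower at passage 56 (-0.11), with a mean of 0.13 (95% interval -0.084 to 0.35). Leaving out siDicer replicate 1 gave 0.068, and leaving out replicate 2 or 3 of siScr gave 0.076 or 0.21. Slc45a3 was at 5.93, 5.83 and 5.60 in siDicer and at 5.97, 5.79 and 5.90 in siScr, and its difference of -0.10 came mostly from passage 56 (-0.30), being -0.0075 without siDicer replicate 3. The other Slc2 genes ranged from -0.044 (Slc2a6) to -0.0040 (Slc2a8), with the fructose carrier Slc2a5 at -0.023, Slc2a7 at -0.014 and Slc2a10 at -0.027. Slc50a1 differed by 0.072 and the sodium-sugar cotransporter Slc5a9 by 0.0010. Of the 9 tested sugar carriers 3 were higher and 6 lower, and 0 had the same sign at all 3 passages.

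Of 11 amino acid carriers with a value, 6 were members. Slc7a11 was left out by name, and Slc1a2, Slc38a11, Slc7a12 and Slc7a13 lay below the threshold. Slc43a1 (LAT3), an importer of branched-chain amino acids, was at 6.99, 7.10 and 7.10 in siDicer and at 6.79, 6.91 and 7.09 in siScr. It was higher at all passages, by 0.20, 0.18 and 0.010, with a mean of 0.13 (95% interval -0.068 to 0.33). This was 0.062 without siScr replicate 1 and 0.21 without siScr replicate 3. Slc66a1, which exports cationic amino acids from lysosomes, was at 7.34, 6.96 and 7.08 in siDicer and at 7.24, 6.93 and 7.34 in siScr, a difference of -0.044. Slc7a14 (-0.017), the glutamate carrier Slc1a7 (-0.0030), Slc6a17 (0.0075), which loads neutral amino acids into synaptic vesicles, and Slc43a3 (0.011) lay near 0. Slc43a3 is grouped here by its family number and is known as a carrier of purine bases. The class had 3 members higher and 3 lower, and 0 passed.

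The mitochondrial carriers of the Slc25 family were 5, of which 3 were higher and 2 lower. Slc25a24, which exchanges ATP-magnesium for phosphate, was at 8.21, 8.48 and 8.34 in siDicer and at 8.38, 8.76 and 8.36 in siScr. It was lower at each passage, by differences of -0.17, -0.28 and -0.024, with a mean of -0.16 (95% interval -0.44 to 0.13). This was -0.027 without siScr replicate 2, -0.090 without siDicer replicate 1 and -0.046 with array weights. Slc25a25, a carrier of the same exchange, differed the other way by 0.10, with 0.080, 0.21 and 0.011 by passage. The mitochondrial NAD importer Slc25a51 was at 8.11, 8.01 and 8.03 in siDicer and at 8.14, 8.06 and 8.20 in siScr, a difference of -0.081, or -0.048 without siScr replicate 3. The aspartate-glutamate carrier Slc25a12 differed by 0.041, and Slc25a44, a carrier of branched-chain amino acids, by 0.025 with a span from -0.28 at passage 56 to 0.25 at passage 54.

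Carboxylate and fatty acid carriers had 4 members higher and 2 lower. Slc16a1 (MCT1), which moves lactate and pyruvate, was at 8.43, 8.29 and 8.23 in siDicer and at 8.25, 8.18 and 8.24 in siScr, a difference of 0.092 (95% interval -0.079 to 0.26). This was 0.035 without siDicer replicate 1, and with the block 0.047 without passage 47 and 0.15 without passage 56. Slc27a3, a fatty acid carrier and acyl-CoA synthetase, was at 5.70, 5.75 and 5.62 in siDicer and at 5.75, 5.83 and 5.73 in siScr. It was lower at every passage, with a mean difference of -0.079 (-0.045 without the siDicer array of passage 56, -0.051 without the siScr array of passage 54), and the groups overlapped. Slc27a4, of the same family, differed by 0.084, the dicarboxylate importer Slc13a3 by -0.026, Slc16a4 by 0.11 and Slc16a14 by 0.0062. The organic ion carrier Slc22a15 (0.035) and the vesicular nucleotide carrier Slc17a9 (-0.0052) completed the transporters, and both had passages of both signs. Slc22a15 was at 6.16, 6.03 and 6.12 in siDicer and at 6.15, 5.90 and 6.15 in siScr, and Slc17a9 was at 5.31, 5.46 and 5.33 and at 5.30, 5.48 and 5.34.

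The rule also took in 2 pseudogenes that are not transporters. Slc39a1-ps was at 8.62, 8.58 and 8.41 in siDicer and at 8.55, 8.34 and 8.64 in siScr, a difference of 0.027, and its probes may also read the parent gene Slc39a1. Slc2a4rg-ps was at 5.23, 5.30 and 5.22 in siDicer and at 5.16, 5.23 and 5.26 in siScr, a difference of 0.031. Without these the median of the other 62 members was -0.0035.

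The direction of the members' differences varied by passage. At passage 47, 41 members were higher and 23 lower in siDicer, a median of 0.044. At passage 54 there were 37 higher and 27 lower, a median of 0.022. At passage 56 there were 18 higher and 46 lower, a median of -0.053. The shares of members above 0 were 64.1%, 57.8% and 28.1%, beside 48.4%, 49.2% and 44.5% of all tested genes. Among the other membrane transport genes described below the shares were 65.2%, 52.2% and 26.1%, so the change by passage was not particular to the solute carriers. The medians over all tested genes were -0.0048, -0.0021 and -0.019. With 1 array per siRNA at each passage, the difference between passages has no test.

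**Figure D3:**
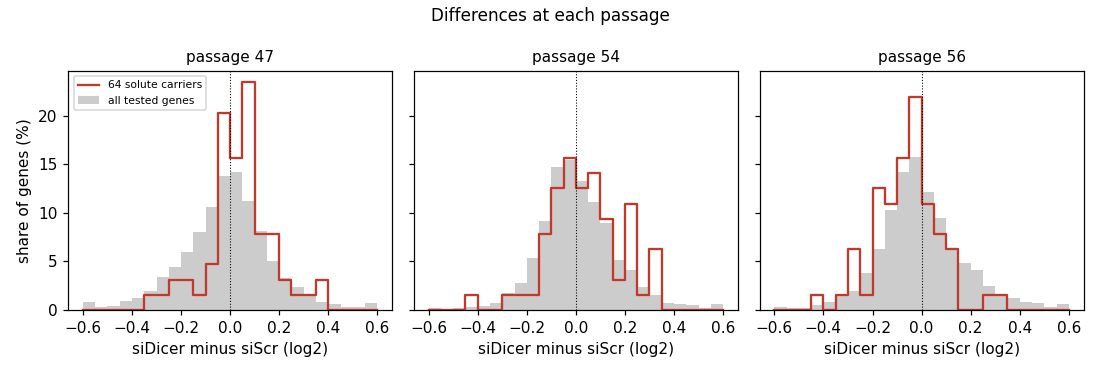
Share of genes (vertical axis, %) by difference between siDicer and siScr (log2, horizontal axis, bins of 0.05) at each passage, for the 64 solute carriers (red line) and all 5361 tested genes (grey bars, with values beyond 0.6 in the end bins). The red line leans to the right of 0 at passages 47 and 54 and to the left at passage 56.

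Signal level and direction went together in part. Of the 36 members at or above the median signal of tested genes, 22 were higher and 14 lower, with a median of 0.034, and of the 28 members below it, 8 were higher and 20 lower, with a median of -0.015. Over all tested genes the corresponding medians were 0.011 and -0.023. The part of signal level in these differences was not tested.

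A few members differed between the passages. In the fit with siRNA and passage as terms, the passage term passed for 2 members, Slc16a4 and Slc6a17, or 3.13%, against 99 tested genes or 1.85%. At an unadjusted p under 0.05 there were 12 members, against 862 of the 5361 tested genes. Slc16a4, a member of the monocarboxylate carrier family, was at 6.67 and 6.71 at passage 47, 7.51 and 7.19 at passage 54 and 6.71 and 6.66 at passage 56, siDicer given before siScr (limma F test, adjusted p = 0.0291). Both passage 54 arrays lay above the other 4. Slc6a17 was at 9.45 and 9.28, then 8.70 and 8.69, then 8.90 and 9.05 (limma F test, adjusted p = 0.0386), with both passage 54 arrays lowest. Neither call held with dim genes kept in, where 0 members passed. Slc24a3 and Slc50a1 did not pass (limma F test, adjusted p = 0.0549 and 0.0676), with mean levels of 7.25 and 8.19 at passage 54 against 6.77 and 8.81 at passage 47. Passage and anything else shared by a pair of samples cannot be told apart.

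**Figure D4:**
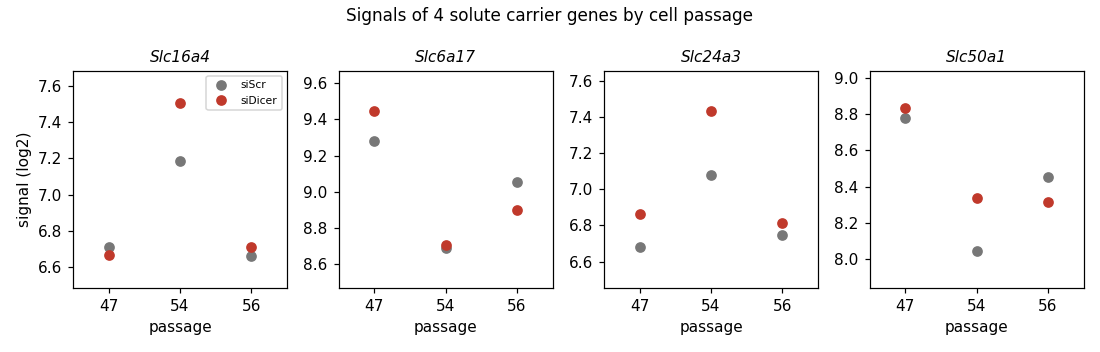
Log2 signal (vertical axis, a span of 1.2 in each panel, set per gene) of 4 solute carrier genes by cell passage (horizontal axis), siScr in grey and siDicer in red. Passage 54 is high for Slc16a4 and Slc24a3 and low for Slc6a17 in both groups, while Slc50a1 is lowest at passage 54 in siScr and at passage 56 in siDicer.

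Other membrane transport genes, chosen by symbol, were read from the same fit. Of 23 tested genes (6 ABC transporters, 6 P-type ATPase genes, 7 Mfsd genes, 3 aquaporins and Slco4a1), 11 were higher and 12 lower, with a median of -0.00065. None passed without the block (limma, 0 of 23, with 2 at an unadjusted p under 0.05). With passage as a block 3 passed, beside 1.73% of all tested genes. Mfsd6, a member of the major facilitator superfamily, rose by 0.43 (limma, adjusted p = 0.0299), and Atp1b1, the beta 1 subunit of the sodium-potassium pump, rose by 0.49 (limma, adjusted p = 0.0289). Abca1, the cholesterol exporter, fell by 0.39 (limma, adjusted p = 0.0493). Abca1 was at 8.21, 8.09 and 8.15 in siDicer and at 8.68, 8.33 and 8.61 in siScr, with no overlap. Atp1b1 was at 7.15, 8.18 and 7.50 in siDicer and at 6.78, 7.56 and 7.03 in siScr, where both passage 54 arrays were highest in their group.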

How the data were processed

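Values are log2 signals per transcript cluster on Affymetrix Clariom D mouse arrays, deposited by the authors on a common scale. Per the submitters' processing notes the software was Affymetrix Expression Console; its summarisation method and the build are not given here in the sources used. That the unit is log2 was read from the values (1.70 to 13.70), and the centring is unknown. Of 16383 clusters, 7715 had 1 gene after 320 symbols were updated through RefSeq, 270 several and 8398 none. Each gene kept its row of highest mean.

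The fit was lmFit and eBayes with a trend (limma 3.58.1, R 4.3.3), two-sided, adjusted by Benjamini-Hochberg over 5361 genes at 0.05. A run on simulated data required only the right sign for large added differences and a small mean error. It set no requirement on false calls or on the share of added differences called. An exact permutation of 3 against 3 arrays cannot go below p = 0.1. P-values set the difference between groups against the spread between these samples, with information on variance shared over genes. The samples are passages of a single line, so spread between lines or animals is not covered. Same-numbered samples share a passage per the labels, so numbers pair the samples. Their deviations from group means correlated at 0.42, 0.62 and 0.070 for replicates 1 to 3. The highest correlation of each siDicer array with a siScr array of another number was 0.29, -0.38 and -0.026. The pair at passage 56 was thus only weakly alike. Substrate classes follow family numbers with a few exceptions, and 1 (Slc39a1-ps) was set after seeing the data. Values on every array are given for members called in either fit, those with non-overlapping groups and a difference of at least 0.25, and the 2 members per class of smallest p; further array values were chosen after their values were seen. Members and lists were chosen with earlier results of these data known. Alternatives covered normalization, array weights, variance prior, filter, row choice, passage block and left-out arrays. The number of arrays limits the precision.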

Additional observations from a re-analysis of the deposited data

How the results depend on the processing

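With the replicate block for passage, 2 members and 93 tested genes passed, against 0 and 1 without it. Chosen after seeing the data, quantile normalization with the block gave 2 and 105, and keeping dim genes in with the block gave 0 and 22. Array weights gave 0 members and 14 genes. With 1 array or 1 passage left out the members passing ran from 0 to 1 and the genes from 0 to 153 (with the block 5, 19 and 153 without passages 47, 54 and 56). The passage term passed for 0 members with dim genes kept in and for 2 after quantile normalization.

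Members near 0 changed sign. Slc17a9 was at 0.016 after quantile normalization with or without the block, at 0.0064 after median centring and at 0.040 with array weights, Slc6a17 at -0.017 after quantile normalization with or without the block and at -0.14 with array weights, and Slc22a15 and Slc39a1-ps at -0.032 and -0.031 with array weights. With the block and passage 54 left out, Slc17a9 was at 0.0041 and Slc22a15 at -0.012, and with passage 47 left out Slc6a17 was at -0.072. Slc39a1-ps was at -0.059 without siScr replicate 2 and 0.093 without siScr replicate 3. With 1 array or passage left out, Slc17a9 ran from -0.049 to 0.048, Slc22a15 from -0.049 to 0.079, Slc39a1-ps from -0.080 to 0.16, Slc66a1 from -0.16 to 0.061, Slc44a5 from -0.11 to 0.011, Slc16a4 from -0.16 to 0.28 and Slc6a17 from -0.21 to 0.16. Of 64 members 39 changed sign in at least 1 of 20 alternatives, and 25 did not. Alternatives that changed only the block, the variance prior, the filter or the row choice left every member's difference the same, so they could not change a sign. Slc39a10 and Slc9a8 kept their direction in all of them. Since their groups did not overlap, leaving out or weighting arrays could not have reversed it. The cause of each change was not tested. The median member difference stayed between -0.016 and 0.035, and scaling moved the median of all tested genes by at most 0.012.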

Other observations

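The 23 solute carrier genes below the threshold had mean signals from log2 2.42 to 4.09 and differences from -0.088 to 0.044. When rows below the threshold were kept in the test, 0 of these 23 genes passed in limma, blocked or not, and 0 had an unadjusted p under 0.05. They include the glutamate importer Slc1a2, the thiamine importer Slc19a3, the glucose carrier Slc2a2 and the zinc carriers Slc30a10 and Slc39a12. Of the 6 genes left out by name, Slc40a1 passed under the block (adjusted p from limma 0.0345), and Slc7a11, Slc24a5, Slc11a1, Slc31a1 and Slc31a2 did not.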
